A study of Mus musculus with 6 samples.

Results

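Thymosins, actins and the proteins that bind actin were followed in haematopoietic stem cell (HSC) libraries through 10 genes, Tmsb4x, Tmsb10, Actb, Actg1, Pfn1, Cfl1, Coro1a, Arpc1b, Arpc2 and Arpc3. They were taken by gene symbol from the 19086 genes of the expression table as abundant genes of the actin cytoskeleton, and all 10 had a row. They were chosen by their high values over all 6 libraries and with earlier results of the same data in view, so their levels and differences are descriptions. The cells, CD150+ and CD48-, belong to the LSK gate (lineage-negative, Sca-1+, Kit+) and the strain is C57BL/6. The sorted cells came from lethally irradiated CD45.1 recipients, 2 months after transfer of CD45.2 marrow, with 3 libraries per donor genotype. Zfp521fl/fl donors carry loxP-flanked alleles of the zinc finger gene Zfp521 and are the controls, and Zfp521-CKO donors are described as deficient in it. The stated purpose was a set of genes raised in deficient HSCs. The labels give no Cre driver, donor age or number of recipients per library, so any p-value rests on library-to-library variation that could be technical only.

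Actin cycles between single molecules and filaments. Beta-thymosins hold single actin molecules in reserve, profilin passes them to growing filament ends, and cofilin severs old filaments and releases them again. The Arp2/3 complex starts new filaments as branches on existing ones, and coronins bind filaments and that complex. In blood cells this cycle drives migration, adhesion and phagocytosis, and thymosin beta-4 and beta-actin are among the most abundant messages of mature leukocytes.

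The coding sequences of both thymosins are shown because these are the 2 genes of the 10 whose groups did not overlap and because related genes can share reads. Each is 135 bases long from start to stop codon, and capitals mark the bases that differ between them.
Tmsb4x: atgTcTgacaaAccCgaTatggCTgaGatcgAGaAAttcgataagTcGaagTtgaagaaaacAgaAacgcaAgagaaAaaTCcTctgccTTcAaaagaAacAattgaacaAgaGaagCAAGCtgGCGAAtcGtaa
Tmsb10: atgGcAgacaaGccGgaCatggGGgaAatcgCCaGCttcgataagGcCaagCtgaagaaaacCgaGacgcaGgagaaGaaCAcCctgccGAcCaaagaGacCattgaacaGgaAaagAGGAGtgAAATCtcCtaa
They were identical at 95 of 135 positions (70.4%), with no identical run longer than 10 bases. Tmsb4x (ENSMUSG00000049775) lies on chromosome X at 167207093 to 167209315, minus strand, and Tmsb10 (ENSMUSG00000079523) on chromosome 6 at 72957347 to 72958748, minus strand, in GRCm38 (GENCODE M21).

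Gm3788 (ENSMUSG00000094392), annotated as a processed pseudogene at chromosome 3, 86672033 to 86672168, minus strand, is shown because it is a nearly exact copy of Tmsb10 with a row of its own in the table. The capital marks the single extra base against the Tmsb10 coding sequence.
Gm3788: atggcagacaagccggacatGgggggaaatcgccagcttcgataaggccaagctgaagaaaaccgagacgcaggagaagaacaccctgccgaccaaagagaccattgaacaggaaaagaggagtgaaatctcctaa
Of 136 aligned positions, 135 were identical to Tmsb10.

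Beta-actin and gamma-actin are nearly the same protein encoded by genes that differ at many silent positions. The first 90 bases of their coding sequences are shown with differing bases in capitals. Most of these differences are silent. The capitals in the codons just after the start codon, and in the codon with GtC in Actb and AtT in Actg1, change the amino acid.
Actb: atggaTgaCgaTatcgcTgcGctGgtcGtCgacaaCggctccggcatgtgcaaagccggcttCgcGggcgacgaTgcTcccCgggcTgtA
Actg1: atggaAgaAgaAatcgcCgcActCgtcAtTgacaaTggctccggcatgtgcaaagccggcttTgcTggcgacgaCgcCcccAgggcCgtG
Over the 1128 bases of the whole coding sequence 88.7% were identical, and the longest identical run was 62 bases. The labels state neither read length nor how reads with several matches were treated, so counts of Actb and Actg1 may hold some reads of each other.

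The libraries differed in ways that touch every gene described here. Recovered reads numbered 7396932 to 10689480 in the controls against 56237262, 30698602 and 3137596 in the replicates 1, 2 and 3 labelled Zfp521-CKO, called CKO-labelled below. Zfp521, the targeted gene, did not follow the labels, with 0, 3 and 0 reads in the controls against 1519, 126 and 0 in the CKO-labelled libraries, so directions below are those of libraries as labelled. The sort excludes mature cells, yet neutrophil markers (15 genes) made up 15.1%, 12.5% and 13.9% of control reads against 0.0375%, 1.46% and 12.8% in the CKO-labelled replicates 1, 2 and 3. Of 15 HSC markers, 7 to 9 had reads in each control and 9 to 15 in each CKO-labelled library. Together the HSC markers made up 0.0143%, 0.146% and 0.0196% of reads in the control replicates 1, 2 and 3. In the CKO-labelled replicates 1, 2 and 3 they made up 0.154%, 0.17% and 0.0347%. The groups overlapped, since control replicate 2 lay above CKO-labelled replicate 3. The means of 3 of the 15 were lower in the CKO-labelled libraries. Slamf1, which encodes the sorted CD150, had reads in CKO-labelled replicate 1 only. Procr had none in any control and some in every CKO-labelled library, though in CKO-labelled replicate 3 its log2 value of 3.96 was that of 3 reads. Fewer cells of a type and less RNA per cell cannot be told apart in such libraries.

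Both beta-thymosins were lower in the CKO-labelled libraries, by 1.89 log2 units for Tmsb4x and 1.49 for Tmsb10, while the actins differed by less than 1 unit. None of the 10 genes passed the test over all 16436 genes tested, and the groups overlapped for 8 of the 10. For 2 genes, both thymosins, every CKO-labelled library lay below every control, as for 2.05% of all genes tested and 7.13% of those with reads in all 6 libraries. In the other direction there were 0 of the 10, against 7.17% and 8.41%. Means were lower for 6 of the 10, against 26.4% of all genes tested and 49.0% of those with reads in all 6 libraries. The median of the 10 differences was -0.51 log2 units, against 1.63 for all genes tested and 0.03 for the 3140 genes with reads in all 6 libraries. Values are log2 of a normalized read count plus 1, a scale that corrects for library size and not for gene length.

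**Figure D1:**
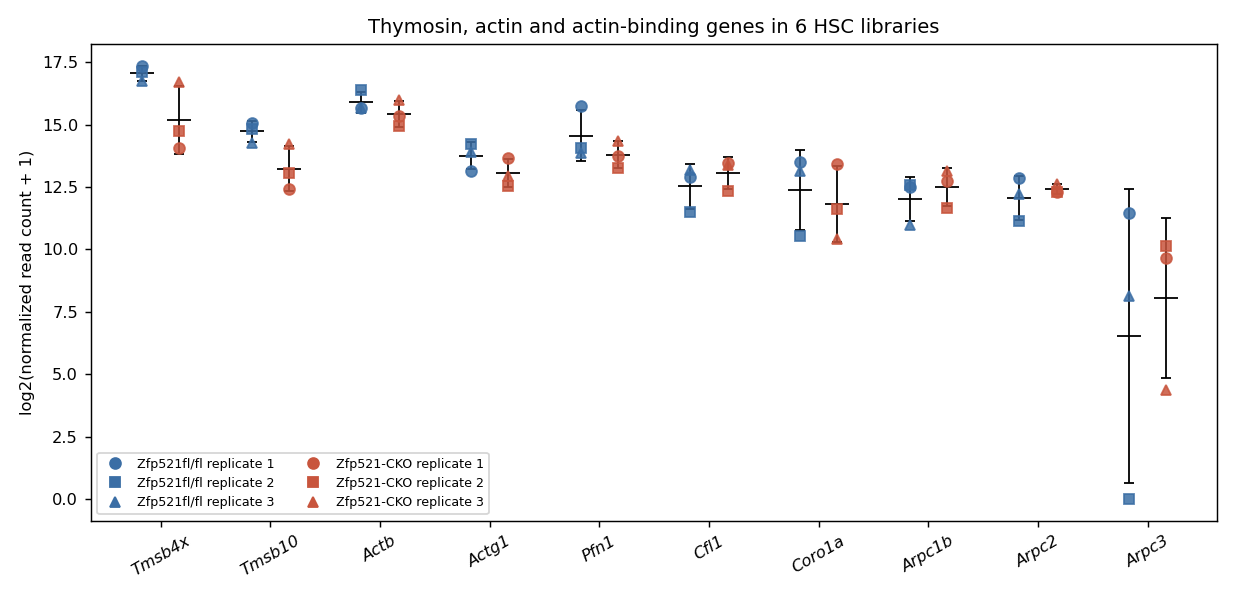
Level of each of the 10 genes in every library, as log2(normalized read count + 1), with blue for Zfp521fl/fl and red for CKO-labelled libraries. Symbols give the replicate number, and black bars the mean ± SD of 3 libraries. The thymosins at the left separate by group only narrowly, through CKO-labelled replicate 3, and Arpc3 at the right spreads from 0 to 11.46.

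Thymosin beta-4, the product of Tmsb4x, is the main actin-sequestering peptide of blood cells. Tmsb4x stood at log2 values of 17.34, 17.10 and 16.75 in the control replicates 1, 2 and 3, against 14.08, 14.74 and 16.69 in the CKO-labelled libraries. CKO-labelled replicates 1 and 2 were far below the controls, and replicate 3 was 0.055 log2 units below the lowest of them. Means of Tmsb4x were 17.06 ± 0.30 and 15.17 ± 1.36 (SD, n = 3 each), a difference of -1.89 with a limma standard error of 0.53.

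Tmsb10, which encodes the related thymosin beta-10, followed the same order of libraries. Its values were 15.06, 14.84 and 14.28 in the controls against 12.42, 13.07 and 14.21 in the CKO-labelled libraries. CKO-labelled replicate 3 again came closest, 0.067 log2 units below the lowest control. The difference was -1.49 (limma standard error 0.54), from 14.73 ± 0.40 to 13.23 ± 0.91 (SD, n = 3 each).

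Counting error was small beside the differences of the thymosin means. The 9 genes other than Arpc3 had 284 to 262421 reads in every library, and no 95% exact Poisson interval was wider than 0.34 log2 units. It was not small beside the gap of 0.067 log2 units between the groups for Tmsb10. For Tmsb10 the interval was 0.091 wide in CKO-labelled replicate 3 and 0.057 in control replicate 3. Such intervals cover counting error only, and PCR copies of a molecule may have been counted as separate reads. Adjusted p over all genes ran from 0.61 to 0.86 for the 10 genes (limma with Benjamini-Hochberg adjustment). At an unadjusted p under 0.05 limma found 2 of the 10, both thymosins, against 5.58% of all genes tested (5.09% higher and 0.493% lower). On the deposited values the outcome turned on CKO-labelled replicate 3. Without it the differences were -2.65 for Tmsb4x and -1.98 for Tmsb10, with limma adjusted p of 0.010 and 0.030. Under the same setting limma called 2509 of all 16436 genes, 2476 higher and 33 lower. With all 6 libraries kept, the outcome also depended on scaling and weighting. Tmsb4x was called with quantile normalization, with weights per library and with weighting by read count. Tmsb10 was called with weights per library only. In that order these settings called 17, 1660 and 5 of all genes tested. Over all alternatives the limma adjusted p ran from 0.00019 to 0.75 for Tmsb4x and from 0.030 to 0.75 for Tmsb10, and the sign held in each.

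The thymosins took the same order as the neutrophil markers and the reverse order of depth among the CKO-labelled libraries. Together they took 1.77%, 1.21% and 0.88% of all reads in the control replicates 1, 2 and 3 against 0.25%, 0.38% and 0.82% in the CKO-labelled libraries. All 15 neutrophil markers had a row, the means of 14 were lower in the CKO-labelled libraries, and Gfi1 had no reads in any control. The 15 monocyte and macrophage markers took 0.47% to 0.99% in the controls against 0.12%, 0.30% and 1.02% in the CKO-labelled libraries, with 12 of 15 means lower and Fcgr1 without reads in any control. The 7 erythroid markers with a row took 0.070% to 0.28% in the controls against 0.014%, 0.025% and 0.14%, with 3 of 7 means lower and Epor without reads in any control. Their part in the thymosin levels was not tested.

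**Figure D2:**
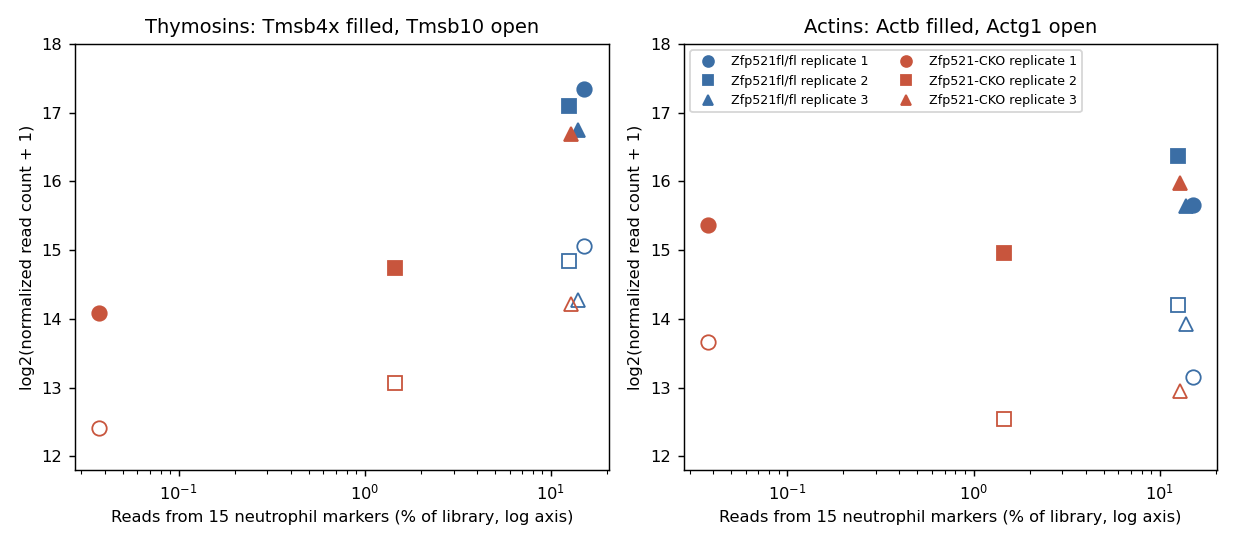
Log2 level of the thymosins (left) and the actins (right) in each library against the percent of its reads from 15 neutrophil markers, on a log axis. CKO-labelled replicates 1 and 2, at 0.0375% and 1.46%, lie lowest for both thymosins. They are also the lowest for Actb, at 15.36 and 14.95, while for Actg1 they stand at 13.67 and 12.54 on both sides of CKO-labelled replicate 3.

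The actins are the subunits of the filament itself. Actb (ENSMUSG00000029580) was at 15.66, 16.37 and 15.65 in the controls against 15.36, 14.95 and 15.97 in the CKO-labelled libraries. The groups overlapped, since CKO-labelled replicate 3 lay above controls 1 and 3. Its 6 libraries spanned 1.42 log2 units, the narrowest range of the 10 genes, and the difference was -0.46 with a 95% interval of -1.19 to 0.27. Actg1 (ENSMUSG00000062825) was at 13.15, 14.21 and 13.92 in the controls against 13.67, 12.54 and 12.95 in the CKO-labelled libraries. Replicate 1 of each group fell inside the range of the other, and the difference was -0.70 with an interval of -1.93 to 0.52. Leaving out 1 library gave -0.73 to -0.22 for Actb and -1.01 to -0.45 for Actg1. The direction for Actb turned with quantile normalization, where its difference was 0.67.

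Multiplying a library by 1 factor leaves the difference between 2 well-covered genes in it nearly as it was, which is not so for quantile normalization or for a gene without reads. Actb minus Actg1 was 2.51, 2.16 and 1.73 in the controls against 1.70, 2.41 and 3.02 in the CKO-labelled libraries, so the groups overlapped fully. Tmsb4x minus Tmsb10 was 2.28, 2.26 and 2.47 in the controls against 1.67, 1.66 and 2.48 in the CKO-labelled libraries. The balance of the thymosins thus spanned 0.82 log2 units over all 6 libraries while Tmsb4x itself spanned 3.26. CKO-labelled replicates 1 and 2 had relatively less Tmsb4x than the other 4 libraries. The exact permutation p was 0.7 for the actin pair and 0.4 for the thymosin pair (two-sided, n = 3 each, where the smallest possible is 0.1). Adjusted over the 5 pairs tested it was 0.7 in each of these exact tests.

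**Figure D3:**
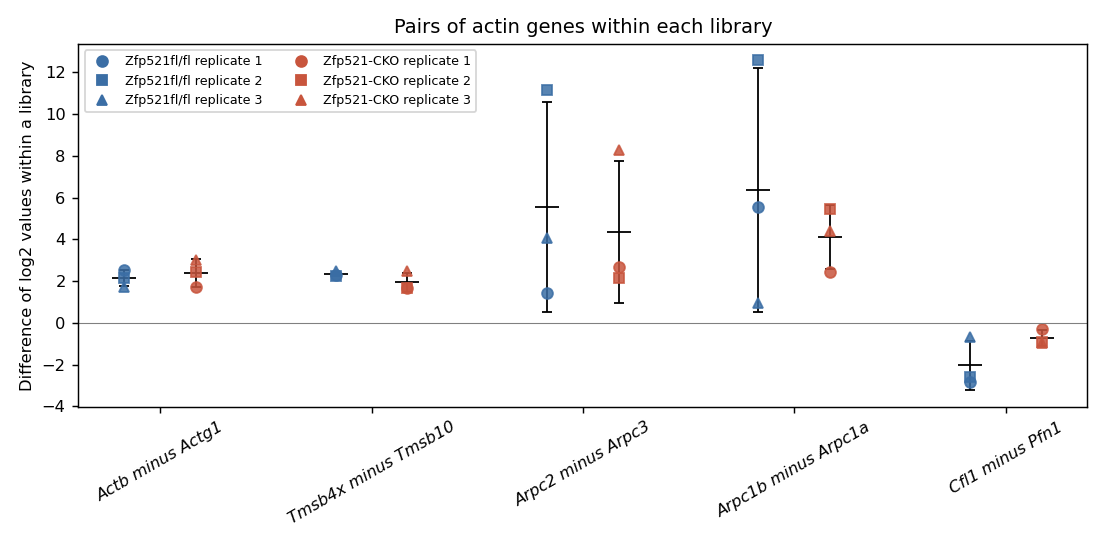
Difference of the log2 values of 2 genes within the same library, for 5 pairs, with black bars for the mean ± SD of 3 libraries. The thymosin and actin pairs stay between 1.66 and 3.02 in all 6 libraries, while pairs with Arpc3 or Arpc1a reach 11.13 and 12.57 where that gene had no reads.

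Profilin 1 and cofilin 1 act on opposite sides of filament turnover. Pfn1 (ENSMUSG00000018293) was at 15.76, 14.08 and 13.86 in the controls against 13.76, 13.26 and 14.35 in the CKO-labelled libraries. Replicate 1 of the controls stood apart as the highest, and the others overlapped. Cfl1 (ENSMUSG00000056201) was at 12.89, 11.50 and 13.18 in the controls against 13.45, 12.34 and 13.39 in the CKO-labelled libraries. The differences were -0.77 (95% interval -2.01 to 0.46) and 0.54 (-0.99 to 2.06). Leaving out 1 library moved them to -0.18 for Pfn1, without control replicate 1, and to 0.03 for Cfl1, without control replicate 2. Cfl1 minus Pfn1 was -2.86, -2.58 and -0.68 in the controls against -0.30, -0.92 and -0.96 in the CKO-labelled libraries, and control replicate 3 lay among the latter (two-sided exact permutation p = 0.3, n = 3 each, 0.7 adjusted over 5 pairs).

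Coronin 1A, encoded by Coro1a (ENSMUSG00000030707), is the coronin of blood cells. Coro1a was at 13.48, 10.55 and 13.13 in the controls against 13.43, 11.60 and 10.43 in the CKO-labelled libraries. High and low libraries occurred in both groups, with control replicate 2 and CKO-labelled replicate 3 about 3 log2 units below replicate 1 of either. The difference of -0.56 was smaller than the SD within either group, which was 1.60 and 1.51 (n = 3 each). It became positive without CKO-labelled replicate 3, and with voom, a limma weighting by read count.

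Of the Arp2/3 subunits, Arpc2, which forms the core of the complex with Arpc4, was the steadiest. Arpc2 (ENSMUSG00000006304) was at 12.88, 11.13 and 12.21 in the controls against 12.30, 12.29 and 12.64 in the CKO-labelled libraries, all within the range of the controls. Arpc1b (ENSMUSG00000029622), the form of the ARPC1 subunit that prevails in blood cells, was at 12.48, 12.57 and 11.00 in the controls against 12.74, 11.64 and 13.14 in the CKO-labelled libraries. The differences were 0.34 (95% interval -1.30 to 1.98) and 0.49 (-1.24 to 2.22). Their signs changed without control replicate 2 for Arpc2 and without control replicate 3 for Arpc1b.

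Arpc3 (ENSMUSG00000029465), a peripheral subunit, was the 1 gene of the 10 that lacked reads in a library. It had 2656, 0 and 140 reads in the controls against 4949, 3634 and 4 in the CKO-labelled libraries. A count of 0 allows up to 3 reads, 0.41 reads per 1000000 in control replicate 2, against 248 per 1000000 (95% exact Poisson interval 239 to 258) in control replicate 1. On the log2 scale that was 11.46, 0 and 8.12 against 9.64, 10.15 and 4.35, and the groups overlapped. Libraries of the same group therefore differed far beyond counting error. Arpc2 minus Arpc3 ran from 1.41 to 11.13 within libraries (two-sided exact permutation p = 0.7, n = 3 each).

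Other subunits of the complex also had very low values in single libraries. Actr2, which encodes the ARP2 subunit, was at 11.48, 11.53 and 10.87 in the controls against 9.99, 10.48 and 4.35 in the CKO-labelled libraries, without overlap. Arpc4 was at 11.71, 13.29 and 12.55 in the controls against 11.76, 10.99 and 4.66 in the CKO-labelled libraries. For both genes CKO-labelled replicate 3 was the low library, with 4 and 5 reads. Actr3, which encodes ARP3, was at 11.68, 4.45 and 11.49 in the controls against 10.02, 9.31 and 9.28 in the CKO-labelled libraries. Arpc5 was at 11.62, 1.53 and 10.63 in the controls against 11.09, 10.72 and 12.88 in the CKO-labelled libraries. Here control replicate 2 was the low library, with 11 reads of Actr3 and 1 of Arpc5. Arpc1a, the other form of the ARPC1 subunit, was at 6.94, 0 and 10.06 in the controls against 10.31, 6.20 and 8.73 in the CKO-labelled libraries. Arpc1b minus Arpc1a ran from 0.94 to 12.57 (two-sided exact permutation p = 0.7, n = 3 each).

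**Figure D4:**
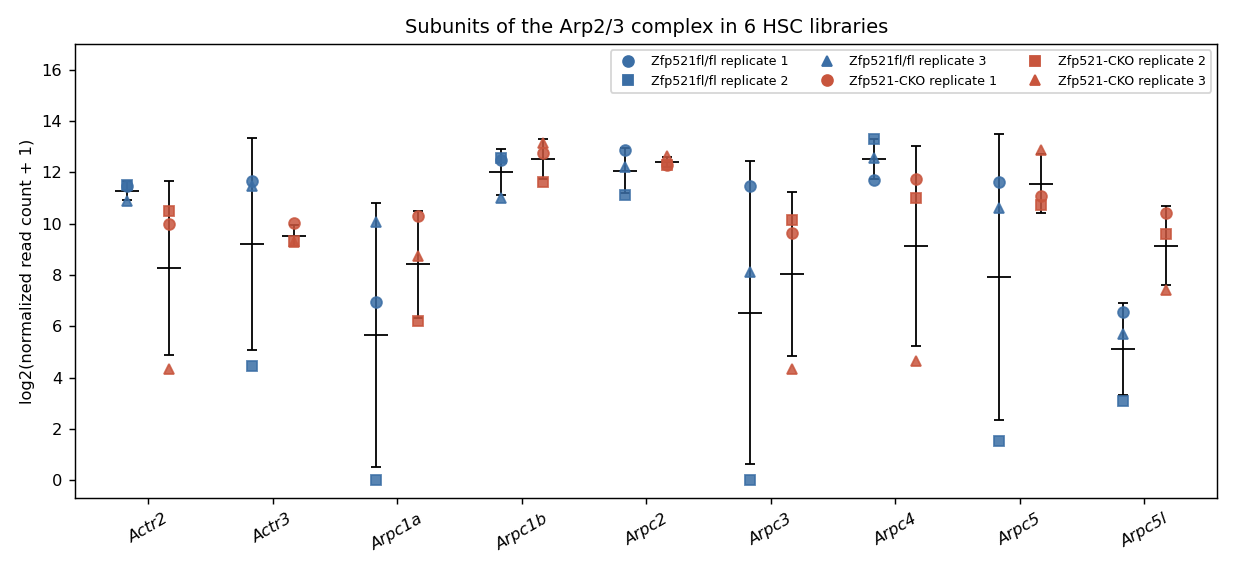
Level of 9 genes of Arp2/3 subunits in every library, as log2(normalized read count + 1), with black bars for the mean ± SD of 3 libraries. The lowest values of Arpc2 and Arpc1b over the 6 libraries are 11.13 and 11.00. Arpc5l was added to complete the complex. Actr3, Arpc1a, Arpc2, Arpc3, Arpc5 and Arpc5l are lowest in Zfp521fl/fl replicate 2, Arpc1b in Zfp521fl/fl replicate 3, and Actr2 and Arpc4 in CKO-labelled replicate 3.

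Per length of gene, Tmsb4x was the most abundant of the 10 by its median over libraries. Reads per kilobase of annotated exon and per 1000000 reads were 10697, 7289 and 5418 for Tmsb4x in the controls against 1399, 2083 and 5064 in the CKO-labelled libraries. Actb came next with 1236 to 2249 over all 6 libraries, then Tmsb10 with 474 to 2364 and Pfn1 with 416 to 2028, and these 3 ranges overlapped. In CKO-labelled replicate 1 the level of Actb, 1742, was above that of Tmsb4x. Arpc3 was lowest, with a median of 19.3. Exon lengths are the union of exons in GENCODE M21, which is not known to be the annotation used for counting.

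Rows of genes similar in sequence, called copies here, were found for 3 of the 10. Whether their reads came from the parent gene or from the copy itself was not tested. Among table rows other than miRNAs, 6 shared at least 50% of their 36-base windows with transcripts of a member, 2 with Tmsb10, 3 with Actg1 and 1 with Cfl1. The copies of Tmsb10, Gm3788 and Gm9844, together had 8.55% to 13.7% as many reads as Tmsb10 in each library. Gm9844, annotated as protein coding, minus Tmsb10 was -3.69, -2.91 and -3.05 log2 units in the controls against -3.04, -3.28 and -3.22 in the CKO-labelled libraries. Those offsets moved by less than 1 unit while Tmsb10 moved by 2.65. Gm3788 minus Tmsb10 had a wider range, from -8.07 in CKO-labelled replicate 1 to -6.64 in CKO-labelled replicate 3. The copies of Actg1 (Gm12715, Gm8399 and Actg-ps1) had 2.35% to 15.4% as many reads as Actg1. Added to their parent, copies left the difference of Tmsb10 at -1.49, without overlap of the groups, and that of Actg1 at -0.68.

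**Figure D5:**
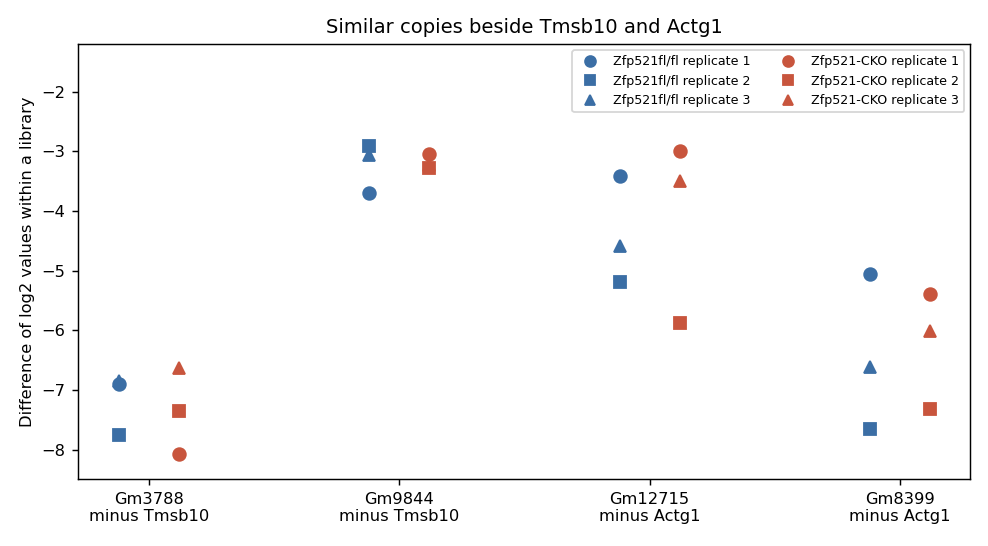
Difference in log2 level between a copy and its parent gene within each library, for 2 copies of Tmsb10 and 2 of Actg1. Gm9844 keeps an offset between -3.69 and -2.91 in all 6 libraries, while Gm3788 ranges from -8.07 to -6.64 and Gm12715 from -5.89 to -3.0.

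The profile of Tmsb4x over the 6 libraries, centred on its mean, was compared with those of 3069 other genes with whole reads in every library. Tmsb10 had rank 3, with a mean absolute difference of 0.31 log2 units per library. Outside the actin and marker lists, the nearest 5 of 2999 genes were Gm4459 (0.27), Ybx1 (0.31), Gm7384, Gm3788 and Gm43247 (0.32 each). Ybx1 encodes a Y-box RNA-binding protein, and the others are annotated as processed pseudogenes, of which Gm3788 is the copy of Tmsb10 shown above. In the actin lists, Myl6, an essential light chain of nonmuscle myosin, had rank 17, and Myh9, a heavy chain of nonmuscle myosin II named after its rank was seen, had rank 19. Myl6 was at 15.80, 14.98 and 14.24 in the controls against 13.07, 12.97 and 14.63 in the CKO-labelled libraries. Actb, Pfn1 and Actg1 ranked 335, 343 and 541. With 6 libraries this describes likeness in these data only.

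The wider actin machinery held genes with higher and with lower means. Of 100 further actin genes listed by function, 93 had a row and all 93 passed the filter. Means in the CKO-labelled libraries were higher for 61 of the 93 and lower for 32, where 26.4% of all genes tested had lower ones. The counts of means by function below stand beside that same share. None of the 93 was called in either direction by limma. At an unadjusted limma p under 0.05 there were 7, against 5.58% of all genes tested (5.09% higher and 0.493% lower). The median difference of the 93 was 0.72 log2 units against 1.63 for all genes tested. For genes with reads in all 6 libraries the order was the reverse, 0.60 for 41 of the list against 0.03. The median of the list ran from -0.16 without control replicate 2 to 1.61 without CKO-labelled replicate 3. Groups did not overlap for 10 higher genes and 2 lower ones, against 7.17% and 2.05% of all genes tested. The lower genes were Actr2 and Zyx, the latter named after its values were seen. Zyx, which encodes the focal adhesion protein zyxin, was at 11.19, 12.89 and 12.03 in the controls against 10.12, 9.65 and 9.87 in the CKO-labelled libraries (limma adjusted p = 0.61, as for Actr2). Reads in all 6 libraries were found for 41 of the 93, and 10 had none in any control, so much of the list had a library without reads. Such libraries occurred in both groups, as for Pfn2, with 1906, 0 and 0 reads in the controls against 0, 0 and 120 in the CKO-labelled libraries.

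Among other thymosins, actins and monomer regulators, 10 were measured, 5 with higher and 5 with lower means in the CKO-labelled libraries. Destrin (Dstn), a relative of cofilin, was at 11.88, 10.77 and 12.86 in the controls against 9.41, 9.63 and 11.27 in the CKO-labelled libraries, a narrow overlap. Wdr1, whose product helps cofilin take filaments apart, was at 9.47, 11.76 and 11.54 in the controls against 9.52, 9.52 and 7.50, so the groups overlapped. Pfn2, a profilin best known from neurons, had reads in only 1 library of each group, 1906 and 120. Of 11 other coronins and Arp2/3 subunits, 9 had higher and 2 lower means. Coro1b was at 6.35, 9.24 and 9.06 in the controls against 10.98, 9.44 and 9.97 in the CKO-labelled libraries, without overlap, and Coro1c averaged 4.84 ± 5.30 and 10.09 ± 1.92.

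Nucleation promoting factors and formins, which switch on the Arp2/3 complex or build straight filaments, had 12 higher and 7 lower means among 19. Was, which encodes the Wiskott-Aldrich syndrome protein of blood cells, was at 7.80, 0 and 11.51 in the controls against 7.31, 8.94 and 9.12 in the CKO-labelled libraries. Brk1, a subunit of the WAVE complex, was at 11.59, 3.63 and 12.21 in the controls against 12.05, 11.77 and 12.51, and control replicate 2 was again the low one. Wasf2, which encodes WAVE2, averaged 9.22 ± 2.13 and 10.69 ± 1.61.

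Of 16 capping, severing, crosslinking and bundling genes, 11 had higher and 5 lower means. Lcp1, which encodes the leukocyte bundling protein L-plastin, averaged 10.03 ± 0.67 and 10.74 ± 0.60. Flna, a crosslinker, averaged 12.00 ± 1.65 and 11.40 ± 1.36, and Tagln2 9.41 ± 4.23 and 12.78 ± 1.23, with only 12 reads of Tagln2 in control replicate 2. Among 17 myosins, tropomyosins and membrane linkers, 10 had higher and 7 lower means. Tpm3, a tropomyosin that coats filaments, averaged 11.29 ± 2.40 and 12.74 ± 0.83.

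Serum response factor (SRF) activates many actin genes with coactivators, Mkl1 and Mkl2, that sense single actin molecules. All 3 had higher means in the CKO-labelled libraries, where 26.4% of all genes tested had lower ones. The difference of Srf, 1.60, became -0.58 without control replicate 2 and -0.32 with quantile normalization. Srf was at 6.06, 0 and 7.04 in the controls against 7.19, 7.30 and 3.42 in the CKO-labelled libraries. Mkl1 was at 0, 0 and 7.74 in the controls against 8.27, 8.23 and 7.78, without overlap by 0.044 log2 units, and Mkl2 at 0, 2.74 and 0 against 8.32, 8.16 and 0. SRF is known to bind the CArG box, and a RefSeq table of promoters (GRCm38.p6, 300 bases around a start) held 12 windows of 9 of the 10 genes, and Actb had none. The box, which reads the same on both strands, was found in windows of 1 of the 9 genes, Actg1, and in 1.63% of all 32851 windows of the table. The stretch at chr11:120348546-120348615, minus strand, is shown with the box in capitals, its first base 90 bases before the start.
Actg1 promoter: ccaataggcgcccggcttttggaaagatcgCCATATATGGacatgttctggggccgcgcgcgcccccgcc
The match is a description of these letters and not a measured site.

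As a share of the library, the 10 genes together took 3.10%, 2.16% and 1.60% of reads in the controls against 1.40%, 1.06% and 1.61% in the CKO-labelled libraries. CKO-labelled replicate 3 lay just above the lowest control. The means were 2.29% ± 0.76 and 1.36% ± 0.28 (SD, n = 3 each), and the difference of -0.93 percentage points did not stand out from that variation (exact permutation p = 0.2, two-sided, smallest possible 0.1). Both actins together took 0.54%, 0.74% and 0.45% in the controls against 0.61%, 0.39% and 0.47% in the CKO-labelled libraries, and the groups overlapped.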

How the data were processed

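The deposited table is named as FPKM, but its values are on a log2 scale. Each deposited value is log2 of 1 plus the reads over a library-specific factor: 99.7% of the 61139 values above 0 were whole reads at a tolerance of 0.001 read. The 213 others lay in 1 block of 75 rows that holds none of the 10 genes. Bowtie, DESeq2 1.26.0 and mm9 are named in the submitters' processing notes with no role, and the sources used here name no counter or annotation. Members and lists were chosen with earlier results of these data known.

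Limma 3.58.1 in R 4.3.3 (lmFit, eBayes with trend, genotype only, 6 libraries, two-sided) was run on the deposited log2 values. It covered 16436 genes with a mean normalized count of at least 1, with Benjamini-Hochberg adjustment at 0.05. The code was also run on simulated counts with a fixed dispersion. That dispersion was not matched to the spread of these libraries, so the run does not show what the fit could detect here. The fit had been planned for log2(FPKM + 1) or log2 values. Pairs and shares were compared by exact permutation over the 10 splits. Alternatives were other pseudocounts, filters, scalings and weights, voom on recovered reads, a replicate block and leaving out libraries. Adding copies to their parents was chosen after seeing the data. Further actin genes named are the 2 with the highest mean per function (all of a group of 3) and a fixed list (Actr2, Actr3, Arpc1a, Arpc4, Arpc5, Dstn, Pfn2, Coro1b, Coro1c, Was, Lcp1 and Srf), and one functional group is not reported here. Sequences are from GENCODE M21 (GRCm38) and RefSeq. The table's build is another, so no coordinate was used to count reads.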

Additional observations from a re-analysis of the deposited data

How the results depend on the processing

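No gene of the 16436 was called by limma on the deposited values, 917 had an unadjusted p under 0.05, and voom called 5. Quantile normalization called 17 genes, 1 of them a member (Tmsb4x), and weights per library called 1660, among them both thymosins and 4 further actin genes. With voom 1 member was called, Tmsb4x. Leaving out 1 library gave 0 to 2509 genes, 0 to 2 members and 0 to 7 further actin genes, and every call came without CKO-labelled replicate 3. The median of the 10 differences ran from -0.75 to -0.10 without 1 library and from -0.61 to 0.05 otherwise. Pair differences changed sign without 1 library for Actb minus Actg1 (-0.0797 to 0.58), Arpc2 minus Arpc3 (-3.24 to 1.62) and Arpc1b minus Arpc1a (-4.96 to 0.86), the first without CKO-labelled replicate 3 and the others without control replicate 2, where the second gene had 0 reads. The cause was not tested. Quantile normalization moved the median of genes with reads in all 6 libraries to -0.76. Libraries of the same replicate number showed no shared deviation across genes, with correlations of deviations of 0.03, -0.04 and 0.01. That cannot tell whether they were handled together. The replicate block called 0 genes. Depth sets a floor that differs between libraries, and 3 reads are a log2 value of 3.96 in CKO-labelled replicate 3 and 0.57 in CKO-labelled replicate 1. Pairs with a gene at 0 also moved with the pseudocount, to -2.27 for Arpc2 minus Arpc3 and -3.36 for Arpc1b minus Arpc1a at 0.1.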
